A study of Mus musculus with 4 samples.

Results

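The genes that make serine, one-carbon units, asparagine and proline were followed in mouse islets kept at low or high glucose. The 10 genes were *Phgdh*, *Psat1* and *Psph* for serine, *Shmt1*, *Shmt2*, *Mthfd2*, *Mthfd1l* and *Aldh1l2* for one-carbon units carried on folate, *Asns* for asparagine and *Pycr1* for proline. They were chosen by name from the 24012 gene symbols of the deposited table, and where a symbol had several rows the one with the highest mean stood for it. All 10 were found. Islets, the clusters of endocrine cells in the pancreas, came from wild type male C57bl6 mice 3 months old and were pooled, cultured overnight in RPMI with 11 mM glucose and starved for 2 h at 2.8 mM glucose. They were then kept at 2.8 mM glucose (2 libraries) or at 16.8 mM glucose (2 libraries), and the 2 libraries of a group were numbered as replicates 1 and 2. Sources differ on the time of exposure. It is 12 h at either concentration in the study's description, but in the labels of the samples only 16.8 mM has 12 h and 2.8 mM has 2 h. If the labels hold, time and glucose concentration cannot be told apart. Because the islets were pooled, and no label says that replicates came from separate animals, p-values measure only the spread between these libraries, which may be technical.

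Serine is made from a glycolytic intermediate in a short chain of reactions. PHGDH oxidizes 3-phosphoglycerate, PSAT1 adds an amino group from glutamate, and PSPH removes the phosphate. Serine hydroxymethyltransferase, SHMT1 in the cytosol and SHMT2 in mitochondria, then splits serine into glycine and a one-carbon unit bound to tetrahydrofolate. In mitochondria, MTHFD2 oxidizes that unit to formyl-tetrahydrofolate, from which MTHFD1L releases formate for use in the cytosol and ALDH1L2 releases carbon dioxide with NADPH. Asparagine synthetase, ASNS, makes asparagine from aspartate and glutamine, and PYCR1 carries out the last step of proline synthesis in mitochondria. Many of these genes are known targets of the transcription factor ATF4, which is made when amino acids run short or the endoplasmic reticulum is stressed.

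Values are RPKM, reads scaled to the length of a gene and the depth of its library. The depths recovered from the table ranged from 50805000 to 60695000 reads. With the genomic span of a gene as its length, introns included, 95.4% to 96.4% of the low values examined came out as whole reads (within 0.06 reads), against 7.58% to 9.44% with the summed exons. A gene with long introns therefore has a low RPKM here. All 8 beta cell markers examined, *Ins2* and *Mafa* among them, were above 0 in every library, and 6 of the 8 were higher at 16.8 mM in limma. Their summed RPKM was 21323 and 19084 at 2.8 mM and 41035 and 38095 at 16.8 mM. For duct markers, 1 of 2 tested was higher, with sums of 19.7 and 16.5 against 27.2 and 33.8. The sum of 11 acinar markers was 108 and 310 against 266 and 545, and 0 of 8 tested were called. The lists for alpha, delta and PP, endothelial, leukocyte and stromal cells also had 0 calls, with 1 to 4 genes tested in each. The part of these cell types in the results was not tested. Of 7867 transcripts tested, 838 were higher and 1790 lower at 16.8 mM. After quantile normalization these were 1576 and 2154, and with medians of the libraries set equal they were 1662 and 2103.

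The promoters of 3 members are shown, *Pycr1* and *Mthfd2* because they fell at 16.8 mM glucose, and *Asns* because it holds the same element as *Pycr1* and did not pass the test. Each runs from 250 bases before to 50 bases after the start of the gene, on the strand of the gene (RefSeq, GRCm38.p6). Matches on either strand to TGATGNAA, the core of the composite element bound by ATF4 with C/EBP proteins, and to CCAAT, the box bound by NF-Y, are in capitals.

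Asns, minus strand of chr6:7693160-7693459: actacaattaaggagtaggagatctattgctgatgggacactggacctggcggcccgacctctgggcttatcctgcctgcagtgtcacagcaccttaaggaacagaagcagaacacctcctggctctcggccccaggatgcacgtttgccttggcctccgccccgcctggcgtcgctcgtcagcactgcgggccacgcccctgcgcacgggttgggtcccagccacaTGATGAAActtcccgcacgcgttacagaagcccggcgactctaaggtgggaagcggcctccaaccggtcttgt
Pycr1, minus strand of chr11:120643699-120643998: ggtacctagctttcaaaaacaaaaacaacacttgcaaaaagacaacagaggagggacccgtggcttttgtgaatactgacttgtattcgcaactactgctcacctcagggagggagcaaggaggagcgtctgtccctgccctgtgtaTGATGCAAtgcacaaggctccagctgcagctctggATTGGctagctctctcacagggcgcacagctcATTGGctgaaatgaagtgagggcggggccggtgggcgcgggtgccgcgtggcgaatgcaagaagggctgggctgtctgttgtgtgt
Mthfd2, minus strand of chr6:83317555-83317854: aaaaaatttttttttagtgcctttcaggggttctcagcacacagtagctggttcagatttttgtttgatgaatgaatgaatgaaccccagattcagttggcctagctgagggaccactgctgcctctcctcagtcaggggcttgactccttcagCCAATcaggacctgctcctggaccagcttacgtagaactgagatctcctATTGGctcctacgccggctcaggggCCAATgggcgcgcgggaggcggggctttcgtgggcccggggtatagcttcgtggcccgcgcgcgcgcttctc

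The *Asns* promoter held TGATGAAA starting 23 bases before the start of the gene, and the *Pycr1* promoter held TGATGCAA starting 103 bases before it. TGATGNAA occurred in 3.97% of all 32851 promoters of the table and in those of these 2 members among the 9 with an entry. *Aldh1l2* had no entry. CCAAT or its complement occurred in 37.4% of all promoters. *Mthfd2* held 3 copies, *Phgdh*, *Psph* and *Pycr1* held 2 each, *Shmt1* held 1, and 1 of the 2 promoters listed for *Psat1* held 3. Neither the cAMP response element TGACGTCA (1.79% of all promoters) nor the E-box CACGTG (7.15%) occurred in these windows of the members. No match overlapped another in the promoters printed.

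The 3 genes of serine synthesis did not pass the test between the concentrations. *Phgdh* (chromosome 3, 98117093 to 98143913 in NCBI build 37) was at 1.62 and 1.53 RPKM in the 2.8 mM libraries and at 1.31 and 1.53 RPKM in the 16.8 mM libraries. The lower 2.8 mM library and the higher 16.8 mM library had nearly the same value, so the groups all but touched. Its log2 fold change was -0.11 with a 95% interval from -0.33 to 0.10 (limma on log2(RPKM + 0.5), adjusted p = 0.359). *Psat1* (chromosome 19, 15979617 to 15999112) was at 2.30 and 2.07 RPKM against 2.08 and 2.27 RPKM, and the groups overlapped. Its mean moved from 2.19 ± 0.16 to 2.18 ± 0.14 RPKM (SD, n = 2), a log2 fold change between -0.22 and 0.21 by its 95% interval (limma, adjusted p = 0.969). *Psph* (chromosome 5, 130271434 to 130293129) was at 1.27 and 1.10 RPKM against 1.07 and 1.15 RPKM, again with overlapping groups, and its interval ran from -0.27 to 0.14 (limma, adjusted p = 0.583). The sign of the *Psat1* and *Psph* changes turned positive with equal library medians (0.08 and 0.02 on the log2 scale) or quantile normalized (0.07 and 0.04).

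**Figure D1:**
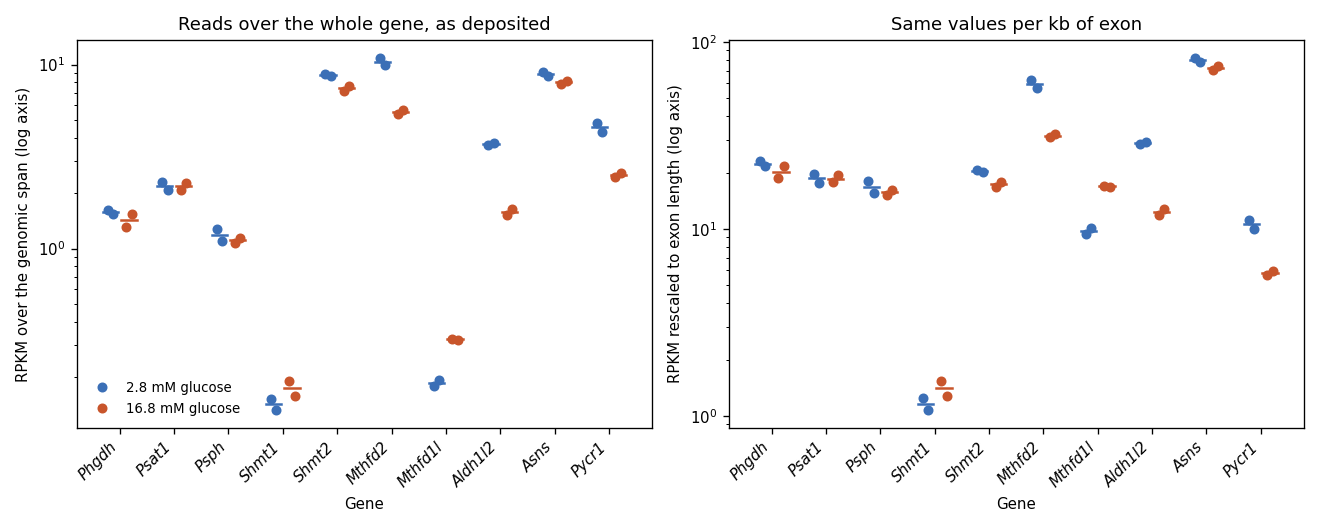
Level of each gene in each library at 2.8 mM (blue) and 16.8 mM glucose (orange), on log axes, as the deposited RPKM over the genomic span (left) and rescaled to the length of the exons (right). Points are libraries, horizontal bars are means of 2; *Mthfd2*, *Aldh1l2* and *Pycr1* lie lower and *Mthfd1l* lies higher at 16.8 mM, and the 3 serine genes stay between 1.07 and 2.30 RPKM.

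Within mitochondrial one-carbon metabolism the members went different ways. *Mthfd2* (chromosome 6, 83255685 to 83267600) was at 10.9 and 9.90 RPKM at 2.8 mM and at 5.40 and 5.64 RPKM at 16.8 mM, so both 16.8 mM libraries lay well under both 2.8 mM libraries. Its mean fell by 46.9%, from 10.4 ± 0.70 to 5.52 ± 0.17 RPKM (SD, n = 2), which is -0.85 ± 0.11 on the log2 scale (standard error, limma, adjusted p = 0.00206). *Aldh1l2* (chromosome 10, 82950195 to 82996885) was at 3.66 and 3.76 RPKM against 1.53 and 1.65 RPKM. With a mean fall of 57.2%, from 3.71 ± 0.066 to 1.59 ± 0.088 RPKM (SD, n = 2), it changed most of the 8 members tested. The log2 fold change was -1.01 with a standard error of 0.09 (limma, adjusted p = 5.4e-04), which placed it number 108 by size among the 5133 transcripts with lower values. *Shmt2* (chromosome 10, 126954195 to 126959491), which supplies the pathway with its one-carbon units, was at 8.88 and 8.72 RPKM against 7.23 and 7.65 RPKM. The groups did not overlap, but the log2 fold change of -0.23 (95% interval -0.48 to 0.02) had an adjusted p of 0.135 in limma. In the fit to reconstructed reads described next it had an adjusted p of 0.0470, and with any 1 of the 4 libraries left out of that fit it no longer passed (adjusted p 0.072 to 0.381).

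*Mthfd1l* and *Shmt1* had means of 0.253 and 0.158 RPKM and so lay under the minimum of 1 RPKM set for the test. For *Mthfd1l* the low value goes with its length, since the gene spans 194 kb (chromosome 10, 6179460 to 6373410) and its exons sum to 3.69 kb. The RPKM of 0.178 and 0.192 at 2.8 mM and 0.322 and 0.320 at 16.8 mM stand for about 2018 and 1937 reads and 3793 and 3153 reads. Both 16.8 mM libraries were above both 2.8 mM libraries. Reads were therefore reconstructed from RPKM, span and depth, and the 17415 transcripts averaging 20 reads or more were tested with voom, the limma method for counts. *Mthfd1l* rose 1.73-fold by its mean RPKM, or 0.80 ± 0.10 on the log2 scale (standard error, voom, adjusted p = 1.9e-06). Whether its added reads lie on exons or in introns cannot be told from 1 value per gene. *Shmt1* (chromosome 11, 60601606 to 60624767), the cytosolic enzyme, had about 207 and 159 reads at 2.8 mM, and at 16.8 mM about 267 and 185, the fewest of the 10. Its RPKM was 0.153 and 0.1325 against 0.190 and 0.1575, without overlap, and its log2 fold change of 0.28 had a 95% interval from -0.11 to 0.68 in voom (adjusted p = 0.239). *Smcr8*, on the opposite strand, shares 184 bp with *Shmt1*, and strand use in the counting is not given in the sources used here. *Smcr8* was at 4.79 and 4.80 RPKM against 4.27 and 3.86 RPKM. How many reads counted for *Shmt1* came from it cannot be told.

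*Asns* and *Pycr1* close the list. *Asns* (chromosome 6, 7625169 to 7643254) was at 9.09 and 8.65 RPKM at 2.8 mM and at 7.83 and 8.18 RPKM at 16.8 mM. Its groups did not overlap, but it did not pass the test. The log2 fold change was -0.14, with a 95% interval from -0.39 to 0.11 and an adjusted p of 0.344 in limma. *Pycr1* (chromosome 11, 120500730 to 120505062) was at 4.82 and 4.29 RPKM against 2.44 and 2.57 RPKM, and both 16.8 mM libraries were lower than both 2.8 mM libraries. Its mean fell by 45.1%, from 4.55 ± 0.38 to 2.50 ± 0.090 RPKM (SD, n = 2), and the log2 fold change was -0.75 (standard error 0.10, limma, adjusted p = 0.00229).

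Of the 8 members tested with limma, 3 (*Aldh1l2*, *Mthfd2* and *Pycr1*) were lower and 0 higher at 16.8 mM glucose, when 33.4% of all transcripts tested had an adjusted p under 0.05, 22.8% lower and 10.7% higher. The share of members is close to this background. The median log2 fold change of the 8 was -0.18 against -0.11 over all transcripts tested. The groups did not overlap for 6 of the 8, and for 70.4% of all transcripts tested. In voom, which could test all 10, the same 3 members and *Shmt2* were lower and *Mthfd1l* was higher, against 42.7% of all transcripts called, 29.1% lower and 13.6% higher. A log2 fold change of at least 0.25 in size, in either direction, was found for the same 3 of the 8 and for 46.2% of all transcripts tested. In whole islets, fewer cells of a type and less RNA per cell cannot be told apart. The 3 falls were called with each of the 4 libraries left out in turn.

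**Figure D2:**
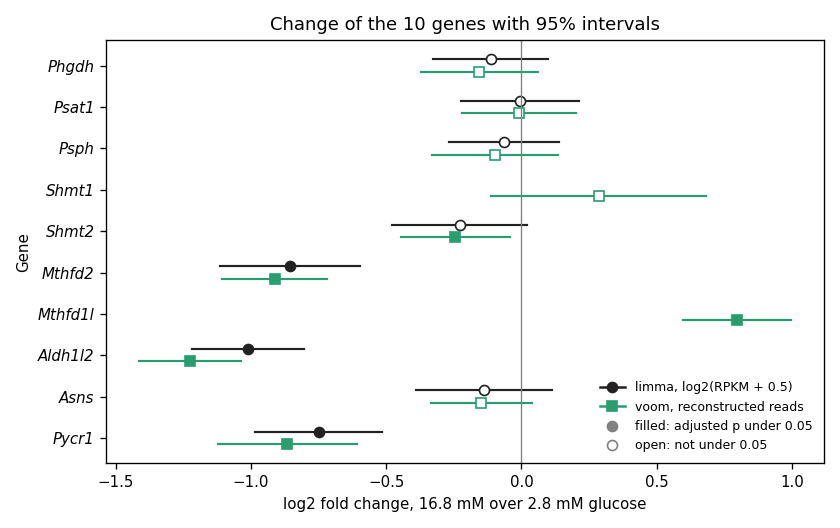
Log2 fold change (16.8 mM over 2.8 mM glucose) with its 95% interval for each gene, from limma on log2(RPKM + 0.5) (black circles) and from voom on reconstructed reads (green squares), filled where the adjusted p was under 0.05. *Aldh1l2*, *Mthfd2* and *Pycr1* lie left of 0 in both tests, *Mthfd1l* lies at 0.80 in the only test that could include it, and the intervals of the 3 serine genes cross 0.

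Levels were also set against each other within a library, as 6 ratios of RPKM per genomic span. The size of such a ratio depends on the length used for each gene, while its fold change between the groups does not. The RPKM of *Mthfd2* was 6.71 and 6.46 times that of *Phgdh* at 2.8 mM and 4.11 and 3.68 times at 16.8 mM. Against *Asns* it was 1.20 and 1.15 times at 2.8 mM and 0.690 and 0.689 times at 16.8 mM. Per kb of exon, *Mthfd2* was under *Asns* in every library, at 0.758 and 0.724 times against 0.436 and 0.436 times. The ratio of *Aldh1l2* to *Mthfd1l*, the enzymes that use formyl-tetrahydrofolate, was 20.6 and 19.5 at 2.8 mM and 4.74 and 5.16 at 16.8 mM, which was 4.05-fold lower. Per kb of exon it was 3.03 and 2.88 against 0.698 and 0.760. Per genomic span, the ratio of *Mthfd2* to *Mthfd1l*, the steps before and after formyl-tetrahydrofolate, was 61.2 and 51.5 against 16.8 and 17.6. The RPKM of the mitochondrial *Shmt2* per genomic span was 58.1 and 65.8 times that of the cytosolic *Shmt1* at 2.8 mM. At 16.8 mM it was 38.1 and 48.6 times. Per kb of exon these ratios were 16.65 and 18.87 against 10.91 and 13.92. In each of these 5 pairs the ratio was lower in both 16.8 mM libraries than in both 2.8 mM libraries. All but *Shmt2* over *Shmt1* contain *Mthfd2* or *Aldh1l2*, whose falls are given above. The ratio of *Psat1* to *Phgdh* was 1.42 and 1.35 at 2.8 mM and 1.59 and 1.48 at 16.8 mM, so it was higher in both 16.8 mM libraries. Groups without overlap were common, at 70.4% of all single transcripts tested, and the share among ratios of other genes was not computed. An exact permutation test over 2 against 2 libraries (two-sided) gave p = 0.333 for each of the 6, the smallest it allows, so none could pass. Such a ratio does not depend on the scaling of the libraries.

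**Figure D3:**
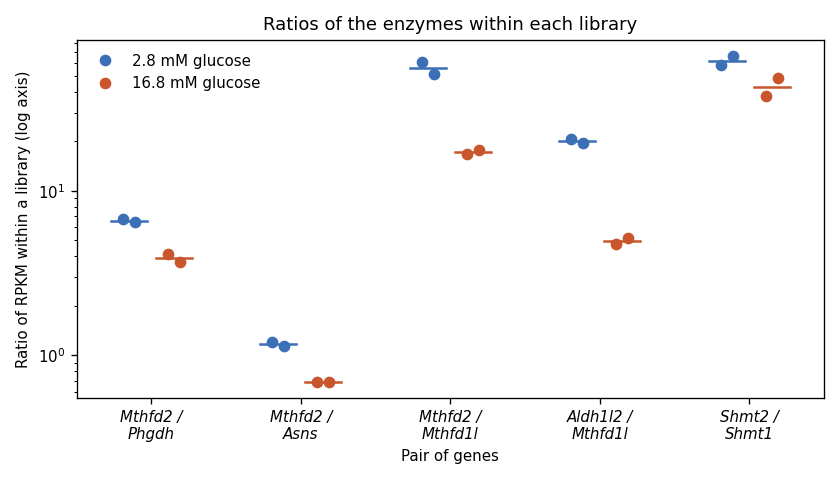
Ratio of the RPKM per genomic span of paired members within each library (log axis) at 2.8 mM (blue) and 16.8 mM glucose (orange). Points are libraries and bars geometric means of 2. The 5 ratios drawn are lower at 16.8 mM, most for *Aldh1l2* over *Mthfd1l* (20.6 and 19.5 against 4.74 and 5.16). The ratio of *Psat1* to *Phgdh*, which was higher at 16.8 mM (1.42 and 1.35 against 1.59 and 1.48), is not drawn.

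The order of the genes by level depended on the length used. Per genomic span, the mean RPKM at 2.8 mM ran from *Mthfd2* (10.4), *Asns* (8.87) and *Shmt2* (8.80) over *Pycr1*, *Aldh1l2*, *Psat1*, *Phgdh* and *Psph* to *Mthfd1l* (0.185) and *Shmt1* (0.143). *Asns* and *Shmt2* overlapped in this order and the other neighbours did not. At 16.8 mM *Asns* (8.01) and *Shmt2* (7.44) came before *Mthfd2* (5.52), and *Aldh1l2* (1.59) overlapped with *Phgdh* (1.42). Rescaled to the length of the exons, as if all reads lay on exons, *Asns* led in both groups with means of 80.1 and 72.4 RPKM. *Mthfd2* followed with 59.4 and 31.6 RPKM. On this scale *Phgdh* (22.4 and 20.2 RPKM), *Psat1* (18.6 and 18.5 RPKM) and *Psph* (16.7 and 15.7 RPKM) stood close together, as did *Shmt2* (20.4 and 17.3 RPKM). *Mthfd1l* went from 9.74 to 16.9 RPKM while *Aldh1l2* went from 28.7 to 12.3 RPKM, so their order turned between the groups. *Pycr1* went from 10.6 to 5.82 RPKM, and *Shmt1* was lowest with 1.16 and 1.41 RPKM.

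Other genes were described from 7 lists with 71 genes in all. The lists cover neighbouring metabolism and, in 1 of them, the ATF4 branch of the stress response. Of the 38 that reached 1 RPKM, 3 were higher and 17 lower at 16.8 mM in limma, with a median log2 fold change of -0.27. Among the higher genes, *Cbs* and *Ppat* reached the minimum only through the libraries at high glucose. Among the lower genes, *Mthfd1* reached it only through those at low glucose. The ATF4 list holds 11 of the 38, with 8 of the 17 lower genes and 0 of the 3 higher. Over all transcripts tested, 10.7% were higher and 22.8% lower, with a median of -0.11. The lists were chosen with earlier results of these data known, most hold 3 to 6 tested genes, and nothing particular to a list follows from its count. In the folate cycle and its carriers, 3 of 15 genes were tested in limma, where 22.8% of all transcripts were lower. Of these 3 only *Mthfd1*, the cytosolic counterpart of the mitochondrial enzymes, was called, and it was lower. It had 1.19 and 1.13 RPKM against 0.844 and 0.916 RPKM (log2 fold change -0.27, limma, adjusted p = 0.0353). *Mthfd1* reached the minimum of 1 RPKM only through the libraries at low glucose. It was also lower in voom (log2 fold change -0.40, adjusted p = 0.0019). In voom, 1 of 14 tested genes of this list was higher and 5 lower, beside 13.6% and 29.1% of all transcripts. Under the minimum of 1 RPKM and so tested by voom only were *Slc19a1*, *Slc46a1* and *Mthfs*, called lower, and *Folr1*, called higher. Among 5 tested genes of glycine cleavage and serine use, *Gcat*, which breaks down 2-amino-3-ketobutyrate to glycine, was lower with 4.56 and 4.38 RPKM against 1.92 and 1.98 RPKM (log2 fold change -1.02). *Gcsh*, the carrier protein of the glycine cleavage system, was lower too (log2 fold change -0.40).

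The methionine cycle and transsulfuration had 2 of 5 tested genes higher and 2 lower in limma, beside 10.7% and 22.8% of all transcripts. In voom, 3 of 9 tested genes were higher and 5 lower, beside 13.6% and 29.1% of all transcripts. Under the minimum of 1 RPKM and so tested by voom only were *Mtr*, *Mtrr* and *Gnmt*, called lower, and *Cth*, called higher. *Cbs*, which joins serine and homocysteine to cystathionine, rose from 0.601 and 0.673 RPKM to 2.19 and 2.50 RPKM, a log2 fold change of 1.32 (limma, adjusted p = 2.2e-04). The mean of *Cbs* at low glucose was 0.64 RPKM, so it reached the minimum of 1 RPKM only through the libraries at high glucose. In voom, which does not use that minimum, *Cbs* was also higher (log2 fold change 1.88, adjusted p = 1.3e-10). *Mat2a*, which makes S-adenosylmethionine, was higher (log2 fold change 0.50). *Mat2b*, its regulatory subunit, and *Ahcy*, which splits S-adenosylhomocysteine, were lower (-0.35 and -0.43). In purine synthesis, which consumes formyl-tetrahydrofolate, 1 of 5 tested genes was higher and 1 lower, near the 33.4% called among all transcripts. *Ppat*, the first committed enzyme, rose from 0.735 and 0.653 RPKM to 1.79 and 1.97 RPKM (log2 fold change 0.996, limma, adjusted p = 4.8e-04). Like *Cbs*, *Ppat* reached the minimum of 1 RPKM only through the libraries at high glucose. It was also higher in voom (log2 fold change 1.44, adjusted p = 1.6e-09). *Atic*, a folate-using enzyme at the end of the pathway, fell from 2.35 and 2.14 RPKM to 1.40 and 1.35 RPKM (log2 fold change -0.55).

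For proline, *Aldh18a1*, the enzyme ahead of PYCR1, was lower, with 5.59 and 5.48 RPKM against 3.89 and 3.66 RPKM (log2 fold change -0.50, limma, adjusted p = 0.00902). It was the only called gene of 3 tested. Around asparagine, aspartate and glutamate, 2 of 6 tested genes were lower and 0 higher, again near the 33.4% called among all transcripts. *Glul*, glutamine synthetase, went from 37.7 and 39.5 RPKM to 13.6 and 14.7 RPKM (log2 fold change -1.42), and *Got1*, the cytosolic aspartate aminotransferase, went from 2.82 and 2.61 RPKM to 1.20 and 1.18 RPKM (log2 fold change -0.93). Both had an adjusted p of 5.8e-04 or less in limma.

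In the list for the ATF4 branch of the stress response, 8 of 11 tested genes were lower and 0 higher, beside 22.8% and 10.7% of all transcripts. The median log2 fold change was -0.77, beside -0.11 over all transcripts. *Ddit3*, *Trib3* and *Nupr1* fell most, with log2 fold changes of -2.83, -1.96 and -1.79. *Atf4* itself, named after its values were seen, was at 137 and 130 RPKM at 2.8 mM and at 79.6 and 75.4 RPKM at 16.8 mM, a log2 fold change of -0.78 (limma, adjusted p = 0.00537). The difference between this list and the members was not tested.

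**Figure D4:**
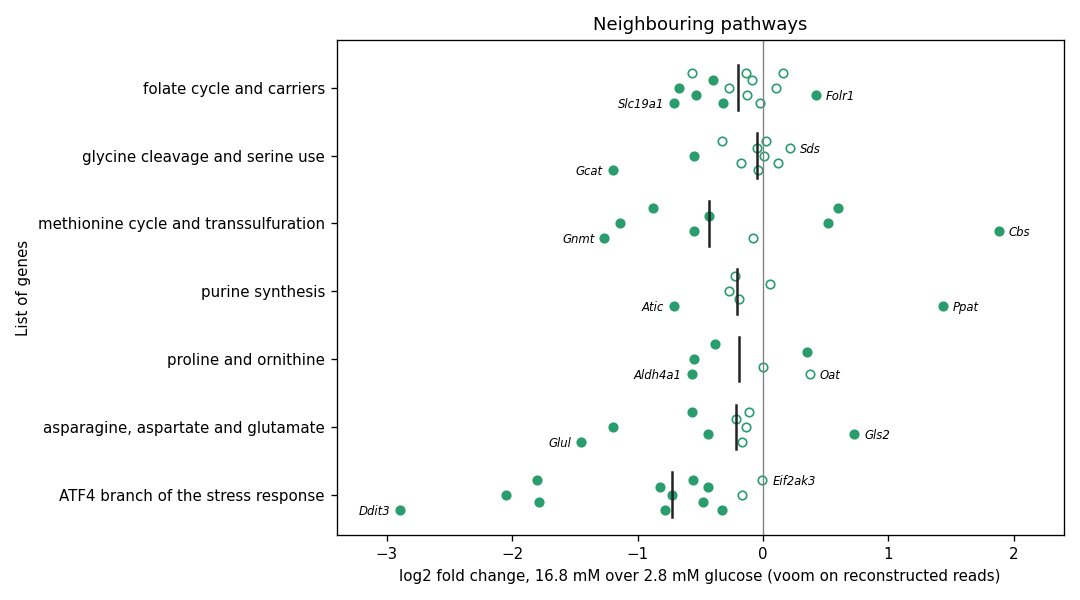
Log2 fold change (16.8 mM over 2.8 mM glucose, voom on reconstructed reads) of the genes of each of the 7 lists with enough reads, filled where the adjusted p was under 0.05, with the median of each list as a black bar. The lowest and highest gene of each list is named, and the points of the ATF4 list lie at or under 0 with a median of -0.725, while *Cbs* and *Ppat* stand apart on the right.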

How the data were processed

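Whole mouse islets were measured by RNA-seq in 2 libraries at 2.8 mM and 2 at 16.8 mM glucose, prepared with the TruSeq RNA v2 kit, and grouped by their titles. The authors deposited RPKM values per transcript and library; the submitters' processing notes name STAR, bedtools, DESeq and mm9, and the versions are not given in the sources used here. The 10 members and the gene lists were chosen with earlier results of these data known. Repeated rows with the same gene and values were counted once (28047 of 33923 left). Transcripts averaging 1 RPKM or more were tested as log2(RPKM + 0.5), which understates changes of low genes, with limma 3.58.1 in R 4.3.3 (variance trend, Benjamini-Hochberg adjustment over all tested, threshold 0.05), after a trial on simulated data. The named genes are the members and, per list, up to 3 called genes with the largest change in each direction. Depth was recovered from short RNAs and genes of known span (whole within 0.06 reads). Reads were RPKM times span and depth, with spans of GENCODE M1 in NCBI build 37, known for 87.3% of transcripts, and are estimates, tested with voom. Both the depth and the 2 libraries per group limit the precision. Promoters came from RefSeq. Alternatives were other pseudocounts, minimums, scalings, no trend, a replicate block, other entries of a symbol and each library left out. Python 3.11.15, pandas 2.3.3, numpy 2.4.6 and matplotlib 3.10.9 were used.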

Additional observations from a re-analysis of the deposited data

How the results depend on the processing

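The falls of *Mthfd2*, *Aldh1l2* and *Pycr1* kept their direction and their call under every alternative that gave a test, and 3 members were called with limma whichever library was left out, 4 with voom. Without anything added before the logarithm, the log2 ratio of means was -1.22 for *Aldh1l2* and -0.86 for *Pycr1*, 0.284 for *Shmt1* and 0.794 for *Mthfd1l*. *Psat1* became positive with quantile normalization (0.069) or median centring (0.079), as did *Psph* (0.038 and 0.019). With 1 library left out, limma and voom together gave -0.084 to 0.068 for *Psat1*, -0.203 to 0.014 for *Psph*, 0.033 to 0.413 for *Shmt1* and 0.246 to 0.850 for *Mthfd1l*. The lone library of a group was then assumed to vary like the others, and the voom fits of this kind were chosen after seeing the data. With 0.1 RPKM added, *Shmt1* was at 0.172 and *Mthfd1l* at 0.563, and with 1 RPKM added *Mthfd1l* was at 0.157, a consequence of the added value. In voom they were at 0.285 and 0.796.

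No label says what libraries with the same replicate number share. The correlation between the deviations of libraries with the same number was 0.31. Whether a number stands for a shared preparation was not tested. With the replicate block, *Shmt2* was called (-0.228, adjusted p = 0.0477 in limma), and 4067 transcripts were called, 2835 of them lower. With the replicate block in voom, 6 members were called, 1 higher and 5 lower, with *Shmt2* at -0.244, *Asns* at -0.147 (adjusted p = 0.0491), *Shmt1* at 0.285 and *Mthfd1l* at 0.796. This fit called 10133 transcripts, 3290 higher and 6843 lower, and 46 genes of the lists, 8 higher and 38 lower. Without the block, voom put *Shmt2* at -0.244 and called 5 members, 1 higher. It called 7440 transcripts, 2377 higher and 5063 lower, and 38 genes of the lists, 7 higher and 31 lower. More transcripts could be tested with voom.

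Without a minimum, 1 member was called higher. Quantile normalization and median centring raised the transcripts called higher from 838 to 1576 and 1662, and the genes of the lists called higher from 3 to 6 and 5. With 1 library left out, limma and voom together called 1825 to 6345 transcripts, 714 to 2113 higher and 1059 to 4687 lower, the 1059 without replicate 2 at 16.8 mM. They called 17 to 38 genes of the lists, 2 to 6 higher and 14 to 32 lower, and 0 to 1 members higher. Apart from what a sentence above says, the cause was not tested. *Shmt1* had the fewest reads of the members and the widest interval in voom.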
